A study of Mus musculus with 6 samples.

Results

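The 8 genes described here handle fatty acids in muscle: Lpl, Vldlr and Cd36 in uptake, Fabp3 and Fabp4 in binding, Dgat1 and Lipe in storage and release, and Pparg in transcriptional control. They were chosen by name, as the probes that the array's annotation assigns to these symbols. Each symbol had 1 probe, so that 8 of the 223 probes of the array are covered. The study measured RNA from the soleus, a slow postural muscle of the calf, in 6 mice of the 129/SV strain labelled WT. In every mouse the hindlimbs had been suspended for 7 days, which unloads the muscle, and had then carried weight again for 1 day. Each mouse had 1 low-density array with radioactively labelled cDNA. Their age is not stated in the sources used here. All 6 samples form 1 group with no unloaded or untreated muscle beside it, so no value below measures an effect of reloading.

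Slow muscle burns fatty acids that arrive in the blood as triglyceride in lipoproteins or bound to albumin. Lipoprotein lipase, anchored on the capillary wall, frees them from triglyceride, the transporter Cd36 carries them across membranes, and small binding proteins ferry them through the cytosol to the mitochondria or to lipid droplets. Fat cells, capillary endothelium and macrophages use several of the same genes, and a piece of whole muscle contains all of these cells. In such a sample, fewer cells of a type and less RNA per cell cannot be told apart.

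Signals are parts per mille of the summed signal of 221 probes on the array, a scale inferred from the values. The lowest probes of each array lay close together, and the 10th percentile of all probes, called the floor here, was 0.5 to 0.7 per mille. Signal of at least 2 times the floor of its own array counts as clear of the floor, a rule chosen with these values known. Mice go by the numbers their titles carry, 175, 176, 177, 178, 202 and 203. Samples 202 and 203 stood apart, since log2 signals over all probes correlated at 0.979 to 0.993 for pairs of arrays within a run of numbers and at 0.956 to 0.975 for pairs across the runs, with probes sharing the array and its labelling. Values with and without both are therefore given where they matter. All 9 measured genes of a muscle fibre list, from the slow myosin heavy chain Myh7 to myoglobin (Mb), passed the 2-fold rule in each of the 6 mice.

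Of the 8 genes, 5 passed it in all 6 mice: Lpl, Vldlr, Cd36, Fabp3 and Fabp4. Over the whole array 25.6% of probes met that rule. Dgat1 was clear in 5 mice. Lipe and Pparg were clear in no mouse, as were 54.3% of all probes. Levels of different genes are not ranked against each other, because each spot has its own primers and labelling, and a signal near the floor reads neither as expressed nor as absent.

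**Figure D1:**
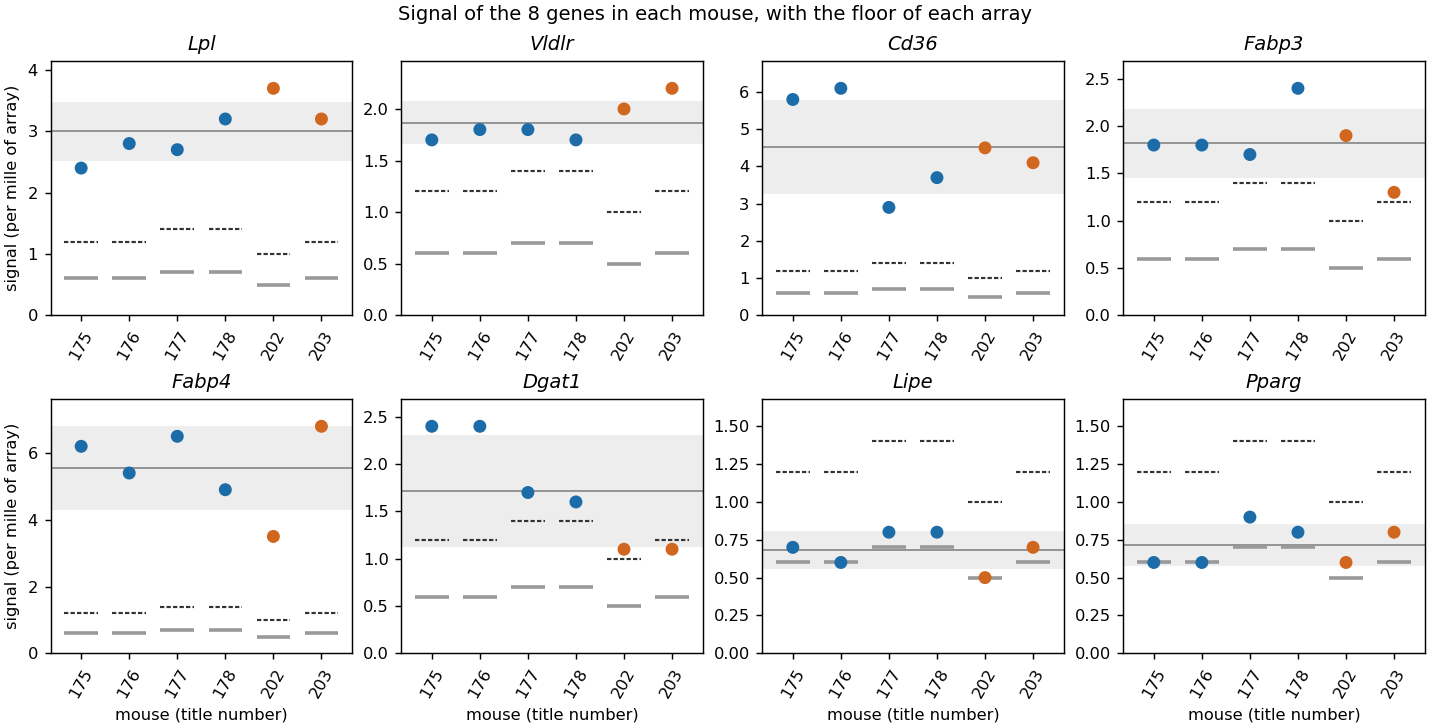
Signal in parts per mille of the array (vertical axis, linear from 0) of each of the 8 genes in each mouse, named by title number (horizontal axis). Blue points are mice 175 to 178 and orange points mice 202 and 203. Short grey bars mark the floor of each array and short dashed bars 2 times the floor, and the line and band give the mean ± SD of the 6 mice. Lipe and Pparg lie below the dashed bars in every mouse, whereas Lpl, Cd36 and Fabp4 lie far above them.

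Lpl encodes lipoprotein lipase, which muscle fibres and fat cells make and which works on the capillary wall. Its signal was 2.4 per mille in mouse 175, 2.8 in 176, 2.7 in 177, 3.2 in 178, 3.7 in 202 and 3.2 in 203. Mouse 175 was lowest and mouse 202 highest, and mouse 203 equalled the highest of the other run. The mean was 3.0 ± 0.460 per mille (SD, n = 6), at 4.97 ± 1.30 times the floor.

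Vldlr is a receptor of triglyceride-rich lipoproteins that holds them near the lipase. It gave 1.7 per mille in mouse 175, 1.8 in 176, 1.8 in 177, 1.7 in 178, 2.0 in 202 and 2.2 in 203. Mice 202 and 203 both lay above the other 4, which differed among themselves by a single step of 0.1 per mille, the resolution of the deposited values. The mean was 1.87 ± 0.197 per mille (SD, n = 6), or 3.08 ± 0.623 times the floor. At 7.17% of all probes both of these mice likewise lay above the other 4.

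Cd36, the membrane transporter of long-chain fatty acids in fibres and capillaries, had a wider spread. Its signal was 5.8 per mille in mouse 175, 6.1 in 176, 2.9 in 177, 3.7 in 178, 4.5 in 202 and 4.1 in 203. The 2 highest and the 2 lowest values thus all fell within the run 175 to 178, and mice 202 and 203 lay between them. The mean was 4.52 ± 1.23 per mille (SD, n = 6), the highest mouse stood 2.10-fold above the lowest, and the signal was 4.14 to 10.2 times the floor. The arrays of the high mice 175 and 176 and of the low mice 177 and 178 also paired over all probes. Log2 signals correlated at 0.989 and 0.993 within these pairs and at 0.979 to 0.985 between them. The part of this array pattern in the spread of Cd36 was not tested.

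The binding proteins did not share 1 pattern. Fabp3, the cytosolic fatty acid binding protein of heart and skeletal muscle fibres, gave 1.8 per mille in mouse 175, 1.8 in 176, 1.7 in 177, 2.4 in 178, 1.9 in 202 and 1.3 in 203. Mouse 178 stood above and mouse 203 below the other 4, which lay within 0.2 per mille of each other. The mean was 1.82 ± 0.354 per mille (SD, n = 6), at 2.97 ± 0.607 times the floor. Fabp3 was only just clear in mouse 203, at 2.17 times the floor.

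Fabp4, the related protein of fat cells, capillary endothelium and macrophages, gave 6.2 per mille in mouse 175, 5.4 in 176, 6.5 in 177, 4.9 in 178, 3.5 in 202 and 6.8 in 203. Mouse 203, the lowest for Fabp3, was the highest for Fabp4, and mouse 202 was the lowest. The mean was 5.55 ± 1.23 per mille (SD, n = 6), and the signal was 7.00 to 11.3 times the floor. The SD of log2 signal was 0.36 over all mice and 0.20 without mouse 202.

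Dgat1 catalyses the last step of triglyceride synthesis, the route into the lipid droplet. It gave 2.4 per mille in mice 175 and 176, 1.7 in 177, 1.6 in 178 and 1.1 in both 202 and 203. Mice 202 and 203 lay below all others and mice 175 and 176 above, and mouse 203, at 1.83 times its floor, was the one in which the gene was not clear. The mean was 1.72 ± 0.585 per mille (SD, n = 6) over all mice and 2.03 ± 0.435 (SD, n = 4) without mice 202 and 203.

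Lipe encodes hormone-sensitive lipase, which breaks down stored lipid in fat cells and fibres. It gave 0.7 per mille in mouse 175, 0.6 in 176, 0.8 in 177, 0.8 in 178, 0.5 in 202 and 0.7 in 203. These values followed the floor of each array, at 1.00 to 1.17 times it in every mouse. The mean was 0.683 ± 0.117 per mille (SD, n = 6).

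Pparg is the nuclear receptor that drives fat cell formation and lipid storage genes. Its signal was 0.6 per mille in mouse 175, 0.6 in 176, 0.9 in 177, 0.8 in 178, 0.6 in 202 and 0.8 in 203, or 1.00 to 1.33 times the floor. The 6 mice took 3 distinct values, and 1 step of 0.1 per mille at the mean of 0.717 ± 0.133 per mille (SD, n = 6) is worth 0.19 on the log2 scale, against a SD of 0.27 between mice. The order of mice for Lipe and Pparg is thus little more than that of a few steps.

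Pparg protein binds DNA as a heterodimer at direct repeats of the half-site AGGTCA spaced by 1 base, and Cd36 is among the genes known to be controlled in this way. RefSeq promoter windows of GRCm38.p6, from 250 bases before to 50 after a transcription start, matched 5 of the 8 genes (Cd36, Fabp3, Lipe, Pparg and Vldlr) in 9 windows. The repeat AGGTCANAGGTCA, searched on both strands, was in 0 of the 9 windows and in 0.0396% of all 32851 windows. The half-site alone was in 3 of the 9 and in 16.3% of all windows; every repeat also counts as half-sites. The 3 matches are shown because they are the only half-sites in the members' windows; capitals mark the half-site, and each line reads 5′ to 3′ on the strand of the gene.
Cd36, minus strand, chr5:17836110-17836133: tgcactttaTGACCTgagattttc
Pparg, plus strand, chr6:115361107-115361130: cgccgcctcAGGTCAgagtcgccc
Pparg, plus strand, chr6:115362331-115362354: gacgcgaggAGGTCAagaaggggc
The Cd36 match begins 228 bases before its start and reads AGGTCA on the opposite strand, and the Pparg matches begin 28 and 9 bases before 2 of its starts. The array reads neither promoter use nor binding, so these letters are a description only.

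The spread between mice separated the 8 genes, with 1 array per mouse, so that mouse and array cannot be told apart. The SD of log2 signal was smallest for Vldlr at 0.15, with 11.7% of all 223 probes narrower, and then 0.22 for Lpl, 0.26 for Lipe, 0.27 for Pparg, 0.28 for Fabp3, 0.36 for Fabp4, 0.40 for Cd36 and 0.50 for Dgat1, with 94.6% of probes narrower. Scaling moved this order. Vldlr gave 0.20 with arrays centred on their median, 0.11 after quantile normalization and 0.28 once each array was divided by its floor. Lipe, at the floor, was narrower than Vldlr in all 3 (0.15, 0.10 and 0.11). Pparg was narrower than Vldlr in the first and the last (0.17 and 0.18) and gave 0.17 after quantile normalization. The median of the 8 was 0.28 beside 0.27 over all probes on the deposited scale. With arrays centred it was 0.28 beside 0.20, after quantile normalization 0.27 beside 0.17, and with arrays divided by their floor 0.29 beside 0.20. Whether the genes varied as much as all probes or more thus depended on the scaling. Of all probes 54.3% were clear in no mouse. Over the members clear in all mice the median was 0.285 as deposited, beside 0.286 over all probes clear in all mice. Without mice 202 and 203 the SD was 0.05 for Vldlr, 0.19 for Fabp4, 0.31 for Dgat1 and 0.52 for Cd36, which left Cd36 as the widest of the 8. Without mouse 203 the SD of Vldlr was 0.10, and without mouse 202 that of Lipe was 0.17.

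**Figure D2:**
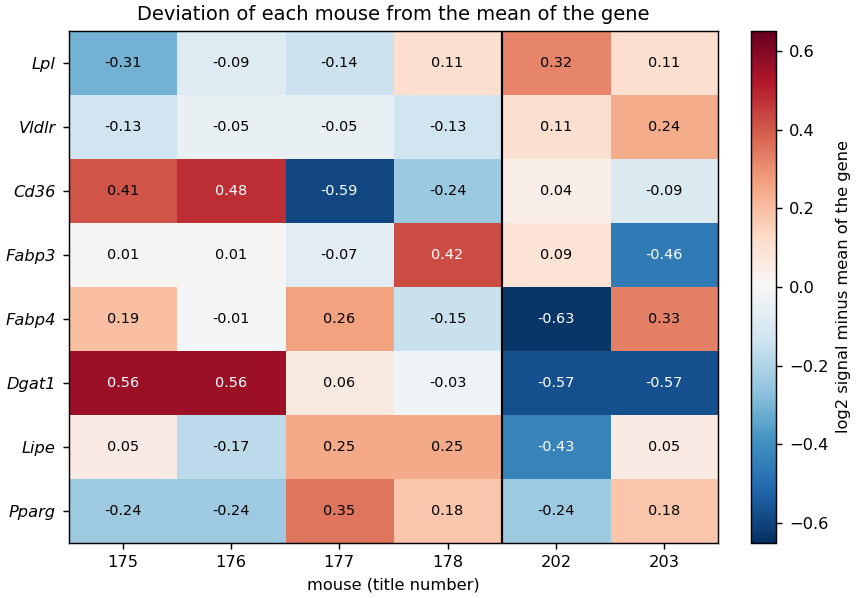
Log2 signal of each mouse minus the mean of the gene over the 6 mice (colour and printed value), with genes in rows, mice in columns and a vertical line between the runs of title numbers. Cd36 and Dgat1 share high values in mice 175 and 176 (0.41 to 0.56), while only Dgat1 is low in both 202 and 203 (-0.57).

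Whether samples 202 and 203 differed from samples 175 to 178 was examined because the runs may have been handled apart, which the labels do not say; it is not a comparison of the study. With limma over all 223 probes, 1 of the 8 genes passed a Benjamini-Hochberg adjusted p of 0.05, against 6.28% of all probes. Dgat1 was lower in 202 and 203, by 0.85 on the log2 scale (SE 0.21, limma adjusted p = 0.0172), a 1.81-fold difference, in both mice against all 4 others; 13.9% of all probes showed that lack of overlap. The median difference of all probes was -0.18 and that of the 8 genes -0.14. The call for Dgat1 was lost when arrays were centred on their median (-0.77, limma adjusted p = 0.0883), after quantile normalization (-0.84, 0.111), with arrays divided by their floor (-0.61, 0.259) and with a pseudocount (-0.61, 0.0527). It was also lost without mouse 175 (-0.76, limma adjusted p = 0.117) and without mouse 176 (-0.76, 0.138). Over the whole array, 16 of the 223 probes passed with arrays centred and 14 after quantile normalization. With arrays divided by their floor 22 passed, and with a pseudocount 10. Without mouse 175 and without mouse 176, 8 and 5 passed, against 14 with all mice as deposited. Leaving out mouse 202 or mouse 203 left 1 mouse in the run, too few to judge the call, and the difference of Dgat1 was -0.85 in either case.

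The remaining genes did not pass, and their 95% intervals on the log2 scale bound what the arrays could have missed. Lpl differed by 0.32, with an interval from -0.09 to 0.72 (limma adjusted p = 0.288), and Vldlr by 0.26, from -0.12 to 0.64 (limma adjusted p = 0.360). Vldlr passed with arrays divided by their floor (0.50, limma adjusted p = 0.0434), where 22 of the 223 probes passed, against 14 as deposited. Cd36 differed by -0.04, with an interval from -0.59 to 0.51, Fabp3 by -0.28, from -0.73 to 0.17, and Fabp4 by -0.23, from -0.73 to 0.27. For Fabp3 and Fabp4 these values average mice 202 and 203, which lay far apart. Without mouse 202 the difference was -0.55 for Fabp3 and 0.25 for Fabp4, and without mouse 203 it was -0.005 and -0.71. Lipe differed by -0.28, from -0.72 to 0.15, and Pparg by -0.04, from -0.50 to 0.42.

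**Figure D3:**
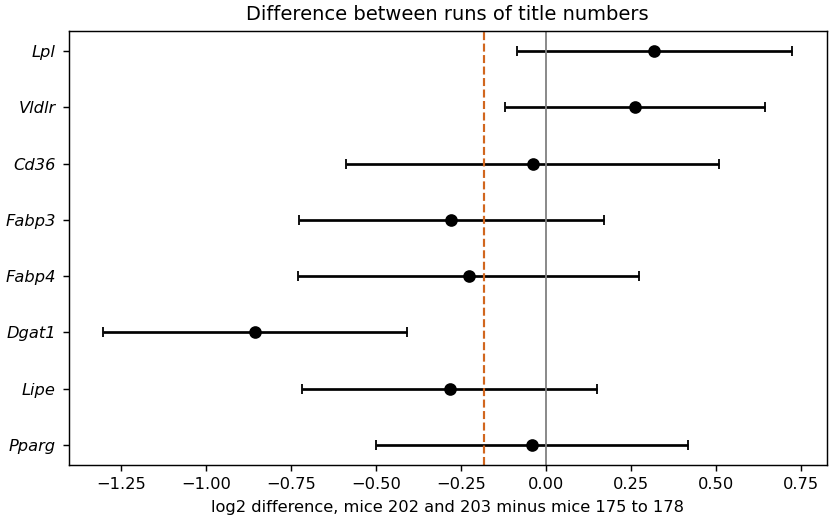
Log2 difference in signal of mice 202 and 203 minus mice 175 to 178 (horizontal axis) for the 8 genes, as points with 95% limma intervals. The grey line marks 0 and the dashed line the median difference of all probes, -0.18. The interval of Dgat1, from -1.30 to -0.41, lies below 0, and the other 7 include 0.

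Covariation was described within arrays. No correlation over the mice is given, because 2 of the 6 stand apart and neither run of numbers holds 6. For each pair of genes the SD over mice of the log2 ratio of their signals was taken, which no scaling of an array changes. It is small when both move together and also when both vary little, so it does not measure covariation alone. Over the 10 pairs of the 5 clear genes its median was 0.47, beside 0.40 over the 1485 pairs of the 55 named probes clear in all mice. Over all 6 mice the lipase and its partner receptor, Lpl and Vldlr, had the smallest value of the 10, 0.18. Of the 1485 pairs 5.72% undercut it, but picking the smallest of 10 pairs makes this share low by itself, so it does not measure closeness. The value of the pair stayed between 0.15 and 0.20 on leaving out any 1 mouse. Within mice 175 to 178 that value was not the smallest, at 0.179 beside 0.138 for Lpl with Fabp3 and 0.177 for Vldlr with Fabp4. In those mice the SD of log2 signal was 0.17 for Lpl and 0.05 for Vldlr. The pairs of Cd36 with Lpl, Vldlr, Fabp3 and Fabp4 gave 0.51, 0.45, 0.50 and 0.57. Fabp3 and Fabp4, both cytosolic carriers, gave 0.57, so that their ratio varied more than either signal. Lipe and Pparg gave 0.18, but both lay at the floor.

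The genes whose pattern was most like each clear gene, by the same measure over 6 mice and 54 other named probes, were as follows. Probes that vary little come near each other by this measure whether or not they move together. Lpl was most like Ldhb (0.15), a lactate dehydrogenase subunit of oxidative muscle, Mb (0.16) and Vldlr (0.18), with a median of 0.38 over the candidates. Vldlr was most like Pole2 (0.13), a DNA polymerase subunit, Mb (0.13) and the cytochrome c oxidase subunit Cox5b (0.15), with a median of 0.33. Myoglobin, the oxygen store of the fibre, was thus among the 3 nearest probes of Lpl and Vldlr, but not of Cd36, Fabp3 or Fabp4. Mb itself varied little, with a SD of log2 signal of 0.18 and 17.9% of all probes narrower.

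Fabp3 was most like Acadl (0.21), an enzyme of fatty acid oxidation, the glycolytic enzyme Gapdh (0.22) and the glucose transporter Slc2a4 (0.27), with a median of 0.41. Fabp4 was most like the matrix protein gene Fn1 (0.12), the integrin chain Itgb1 (0.20) and the fibre regulator Myf6 (0.21), with a median of 0.40. Fn1 gave 1.9 per mille in mouse 175, 1.6 in 176, 1.7 in 177, 1.6 in 178, 1.1 in 202 and 1.9 in 203, with the same lowest mouse as Fabp4, and the value of the pair lay between 0.09 and 0.13 on leaving out any 1 mouse.

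Cd36 was most like Rn28s1 (0.19), a ribosomal RNA, then Myh4 (0.25), the fastest myosin heavy chain, and Cd34 (0.26), a surface protein of endothelium and progenitor cells, with a median of 0.50. The Rn28s1 signal, which is not part of the 221-probe total, was 182 per mille in mouse 175, 154 in 176, 79.0 in 177, 117 in 178, 161 in 202 and 140 in 203, and mouse 177 was lowest for it, as for Cd36 and Myh4. The part of this ribosomal signal in the spread of Cd36 was not tested. Dgat1, clear in 5 mice and so outside the rule for named genes, was nearest to Ucp3 (0.25), a mitochondrial uncoupling protein that fatty acids induce, which gave 3.1 per mille in mice 175 and 176, 2.9 in 177, 2.6 in 178, 2.2 in 202 and 1.9 in 203; this pair was singled out after its values were seen. Ucp3 itself did not pass between the runs (limma adjusted p = 0.108).

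Lpl, Fabp3 and Fabp4 split by the cell type list with which their ratio was steadier. Each list was summed over its measured genes, 9 of 16 for fibres and 7 of 11 for capillaries. The summed signal of the 9 fibre genes was 284 to 363 per mille over the mice, and that of 7 capillary endothelial genes 7.7 to 10.8 per mille. The capillary sum was lowest in mouse 202 and highest in mouse 203, the same mice as for Fabp4. Its genes that were clear in any mouse did not all share this. Pecam1 was lowest in mouse 176 (1.4 per mille) and Cdh5 in mouse 178 (1.1), with Cdh5 at 1.9 in mouse 202. Both were highest in mouse 203 (2.9 and 2.5). Cd34 was lowest in mouse 202 (1.5) and highest in mouse 176 (2.6). The part of the capillary sum in the Fabp4 signal was not tested. The ratio of Lpl to the fibre sum had a SD of 0.14 on the log2 scale, against 0.29 to the capillary sum, and that of Fabp3 0.26 against 0.42. For Fabp4 the order was the opposite, 0.47 to the fibre sum and 0.25 to the capillary sum. Within mice 175 to 178 the order was kept for all 3, at 0.08 against 0.19 for Lpl, 0.16 against 0.24 for Fabp3 and 0.36 against 0.16 for Fabp4.

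For other members the order depended on the mice or genes used. Vldlr gave 0.19 to fibres and 0.15 to capillaries over all mice, and 0.18 and 0.06 within mice 175 to 178. In those 4 mice the SD of its own log2 signal was 0.05. Cd36 gave 0.42 to fibres and 0.47 to capillaries, and 0.54 and 0.55 within those 4 mice. Dgat1 gave 0.58 and 0.57, and 0.40 and 0.34 within them. Of the capillary genes Pecam1 and Cd34 were clear in all mice, Cdh5 in some, and Kdr, Flt1, Tek and Nos3 in none, so part of that sum is floor. Against Pecam1 and Cd34 alone the ratio gave 0.23 for Fabp4, 0.37 for Lpl and 0.48 for Fabp3, with the order kept. It gave 0.22 for Vldlr and 0.41 for Cd36, which turned the order of both, and 0.53 for Dgat1. These SDs are descriptions of 6 arrays, with no test.

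**Figure D4:**
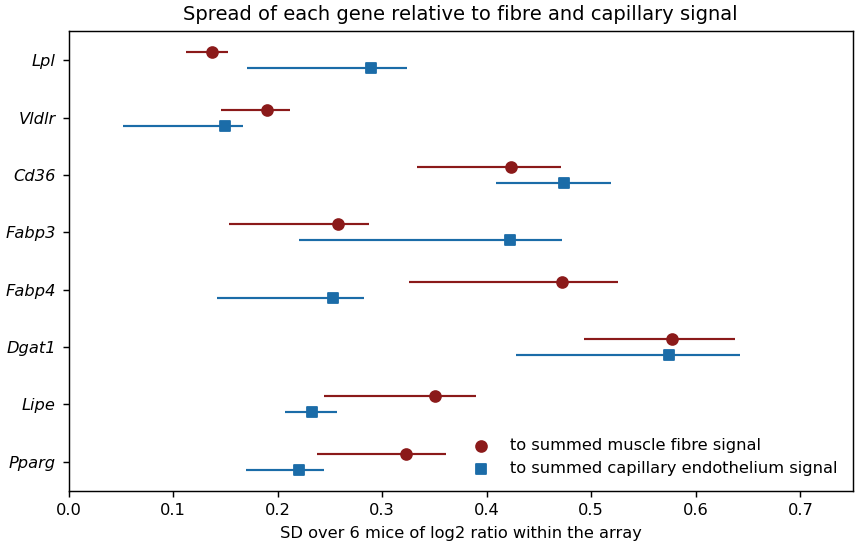
SD over the 6 mice of the log2 ratio of each gene to the summed signal of 9 fibre genes (red circles) and of 7 capillary endothelial genes (blue squares) on the same array. Lines run from the lowest to the highest SD on leaving out 1 mouse at a time. Lpl and Fabp3 have the smaller SD against fibre signal (0.14 and 0.26), Fabp4 against capillary signal (0.25).

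Fat cells, which express Fabp4, Lipe, Pparg and Lpl, could not be followed through other markers: none of a list of 9, such as Adipoq and Plin1, had a probe. The members named here are a choice and not all that fat cells may express. Among them Fabp4 was 7.00 to 11.3 times the floor and Lpl 3.86 to 7.40 times, while Lipe and Pparg were at it. A signal at the floor reads neither as expressed nor as absent, so these values do not divide fat cell genes. The macrophage list had 1 probe of 10 genes, Csf2rb, at 0.8 to 1.2 per mille, and the fibroblast list 1 of 7, Pdgfra, at 0.8 to 1.5 per mille. The part of these cells in the signals of Fabp4, Cd36 and Lpl was not tested.

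Of 36 other genes of fatty acid handling, 6 had a probe. Acadl, Hadh and Ucp3 were clear in all mice (25.6% of all probes), Cpt1b and Acadm in some, and the receptor Ppara in none (54.3%). On the deposited scale the median SD of log2 signal over the 6 was 0.12, beside 0.27 over all probes. The SDs ran from 0.11 for Acadm to 0.29 for Ucp3, which was 1.9 to 3.1 per mille. They were not computed under the 3 other scalings, where the median over all probes was 0.17 to 0.20. Acadl, which opens the oxidation of long-chain fatty acids, gave 2.6 to 3.2 per mille, Hadh, a later enzyme of the same cycle, 3.2 to 3.9, and Cpt1b, which admits fatty acids to mitochondria, 1.3 to 1.6 per mille. Of these 6 genes, 0 passed between the runs of title numbers in limma at an adjusted p of 0.05, against 6.28% of all probes. For so few genes that count is near the share of the array. The smallest unadjusted p among them was that of Ucp3 (limma, 0.0138).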

How the data were processed

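Total RNA of cryosections was reverse transcribed with gene-specific primers and [alpha-32P]dATP, per the labels' protocols. The deposited table holds 1 linear signal intensity for each of 223 probes and 6 arrays. How spots were scanned, corrected for background and normalized is not given in the sources used here. Without probes 1M and 1O the deposited intensities of an array sum to 999 to 1000.4 per mille, so they were used as parts of that total. No label states this scale. Array medians were 0.8 to 1.0 per mille.

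Gene names came from the platform annotation (205 probes with 1 gene, 0 with several, 18 with none), and all 8 members matched a current gene number. Differences between runs of title numbers were tested with limma 3.58.1 on log2 signal with no pseudocount over 223 probes, with Benjamini-Hochberg adjustment, and the script was tested on simulated data. The members, lists and rules were chosen with earlier results of these data known. Named genes were the 8 members, the 3 likest clear probes of each clear member, and list genes where a result turns on them. Alternatives were 3 other scalings, a pseudocount of 0.6 per mille, a filter on the dimmest 25% of probes, other floors and leaving out mice. The title numbers are taken as separate mice because the series calls the samples biological replicas.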

Additional observations from a re-analysis of the deposited data

How the results depend on the processing

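The number of genes clear of the floor in all mice was 5, and it was 3 when clear meant 3 times the floor (Cd36, Fabp4 and Lpl), 6 at 1.5 times, 5 with the 5th and 4 with the 20th percentile as floor, 6 without mice 202 and 203, and 5 to 6 on leaving out 1 mouse. The number differing between runs of title numbers was 1 as deposited and 0 with arrays centred on their median, with quantile normalization and with a pseudocount of 0.6 per mille. It was 1 with arrays divided by their floor, where the gene was Vldlr in place of Dgat1, and 1 (Dgat1) without the dimmest 25% of probes and with 50% of the floor subtracted, and 0 to 1 on leaving out 1 mouse. Dgat1 was lower in every one of these settings. Over the whole array 22 of the 223 probes passed with arrays divided by their floor, against 14 as deposited. The median SD of the 8 genes ranged from 0.23 to 0.30 on leaving out 1 mouse. The median SD of log2 ratio of the 10 clear pairs was 0.43 to 0.48 on leaving out 1 mouse. For single genes, 76 of the SDs under alternatives moved by less than their sampling error and 20 by more, among them those of Lipe (0.10 with quantile normalization) and Pparg (0.14 with a pseudocount). The 20th percentile floor, the 50% subtraction and the settings for pairs were added after the data were seen. No paired analysis was possible because the samples form 1 group. With 1 array per mouse and values in steps of 0.1 per mille, differences in Lipe and Pparg could not be resolved.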
